A study of Mus musculus with 16 samples.

Results

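The response of the mouse dorsal hippocampus to training in the Morris water maze was measured across both drinking regimens, by comparing every library labelled learning with every library labelled home cage. The labels alone chose the libraries, so that the comparison used 16 of the 16 libraries in the series, 8 learning and 8 home cage. The animals were male C57Bl6/J mice that received plain water or water with caffeine at 0.3 g/L for 2 weeks, starting at 8 to 9 weeks of age. Each condition held 4 water mice and 4 caffeine mice, 1 library per mouse. The learning mice were habituated to the pool for 2 days, trained for 3 days with 4 trials a day to find a platform hidden under water at 21 °C, and their dorsal hippocampus was taken 1 hour after the last trial. The home cage mice were resting animals on the same drink. Swimming, exposure to water, handling and memory formation therefore cannot be told apart here, nor can any of them be tied to the last trial rather than to the earlier days.

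Neurons that fire strongly switch on immediate early genes within minutes, through factors already present in the cell such as CREB and serum response factor. The first wave holds transcription factors of the AP-1 (Fos, Jun), Egr and Nr4a families, which in turn act on later genes, together with proteins such as Arc and the short form of Homer1 that act at the synapse itself. In the hippocampus these genes are standard markers of recent activity and are needed for lasting memory. In these data the AP-1, Egr and Nr4a families, the Period genes of the circadian clock and many glucocorticoid-responsive genes were higher in learning mice. Choroid plexus markers, some microglial markers and some genes of the ribosome and of oxidative phosphorylation were lower. No choroid plexus marker was called without 3 home cage water libraries, which were picked for high levels of these markers. Fewer microglial, ribosomal and oxidative phosphorylation genes were called lower after a correction for transcript length and GC content. The ribosomal and oxidative phosphorylation counts also moved with single libraries, as given below.

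Promoter sequences of a few responding genes are shown because they carry the short elements through which activity-dependent transcription is known to act. Each is the 250 bases before a RefSeq transcription start, on the gene's own strand, in build GRCm38.p6. The sequences shown were chosen for a match. For Fos, Egr4, Junb, Homer1 and Npas4 such 250 bases held no match to the elements searched for below. Rps9, a gene called lower, carried a cAMP response element. Capitals mark the element named in each sentence. For Egr2, at 1 of its RefSeq starts (chr10:67537620-67537869, plus strand), they mark a CArG box, the binding element of serum response factor, that begins 73 bases before the start.
Egr2: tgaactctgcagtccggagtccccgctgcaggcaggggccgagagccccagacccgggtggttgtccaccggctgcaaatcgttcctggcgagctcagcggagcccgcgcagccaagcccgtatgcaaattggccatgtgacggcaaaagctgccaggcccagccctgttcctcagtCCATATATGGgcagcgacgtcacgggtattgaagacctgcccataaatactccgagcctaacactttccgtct
For Fosb (chr7:19310046-19310295, minus strand) and Nr4a1 (chr15:101266596-101266845, plus strand) they mark the Egr element GCGGGGGCG, which lies on the opposite strand in Nr4a1, 50 and 60 bases before the start respectively.
Fosb: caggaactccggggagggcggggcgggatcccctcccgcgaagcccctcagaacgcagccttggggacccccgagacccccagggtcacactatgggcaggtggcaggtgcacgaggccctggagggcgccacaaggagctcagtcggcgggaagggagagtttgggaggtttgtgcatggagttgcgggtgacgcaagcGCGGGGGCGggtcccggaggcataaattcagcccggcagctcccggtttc
Nr4a1: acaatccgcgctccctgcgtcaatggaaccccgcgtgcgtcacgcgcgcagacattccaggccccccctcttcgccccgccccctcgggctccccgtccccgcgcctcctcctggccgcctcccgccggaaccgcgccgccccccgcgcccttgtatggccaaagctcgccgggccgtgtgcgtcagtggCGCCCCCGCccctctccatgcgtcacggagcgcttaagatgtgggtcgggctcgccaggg
For Dusp1 (chr17:26508473-26508722, minus strand) they mark the cAMP response element TGACGTCA at 143 bases and the E-box CACGTG, the element of the circadian factors Clock and Bmal1, at 126 bases. In Pcsk1 (chr13:75089607-75089856, plus strand) the cAMP response element stands 78 bases before the start.
Dusp1: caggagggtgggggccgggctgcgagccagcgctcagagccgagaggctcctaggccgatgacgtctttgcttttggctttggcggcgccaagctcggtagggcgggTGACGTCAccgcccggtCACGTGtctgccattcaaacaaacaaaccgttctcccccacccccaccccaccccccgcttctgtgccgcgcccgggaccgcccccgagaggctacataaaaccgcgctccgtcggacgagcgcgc
Pcsk1: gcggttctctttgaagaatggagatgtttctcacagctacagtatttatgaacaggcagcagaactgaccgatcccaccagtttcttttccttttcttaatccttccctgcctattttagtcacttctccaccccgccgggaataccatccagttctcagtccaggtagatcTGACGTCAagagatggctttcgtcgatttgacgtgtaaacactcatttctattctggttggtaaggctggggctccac

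Both strands of the 300 bases around each start (250 before, 50 after) were searched for these letters in 16078 RefSeq promoters of 12573 tested genes. The cAMP response element was present in 2.78% of all these promoters, in 3.56% of the 1434 promoters of genes called higher in learning and in 2.73% of the 1136 promoters of genes called lower. GCGGGGGCG was present in 5.16%, 7.18% and 4.14%, and the E-box CACGTG in 9.18%, 11.4% and 7.66%, in the same order. The AP-1 element TGACTCA (3.75%, 3.07% and 3.96%), the second Egr form GCGTGGGCG (1.10%, 0.976% and 0.880%) and the CArG box (1.34%, 1.26% and 1.06%) were not more frequent among genes called higher. These shares were not tested, genes have more than 1 promoter each, and a match is a run of letters, not a bound site.

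Learning libraries were deeper, with 30860000 to 49950000 counts against 23080000 to 41840000 in home cage libraries (mean 40180000 and 32110000, exact two-sided permutation test within drinks, n = 8 per condition, adjusted p = 0.025 over 5 library measures). Thinned to equal depth, the libraries gave 1344 genes called higher and 1016 called lower by the test described below. Counts from mitochondrial genes took a median of 3.37% in learning and 3.68% in home cage libraries (exact permutation test, adjusted p = 0.0143). The slope of log2 level on log2 exonic length, which is above 0 where long transcripts read higher than in the average library, was 0.0263 ± 0.0280 in learning and -0.0263 ± 0.0435 in home cage libraries (SD, n = 8 per condition, exact permutation test, adjusted p = 0.025). Summed choroid plexus markers had a median of 424 CPM in learning and 770 CPM in home cage libraries (exact permutation test, adjusted p = 0.025), and 3 home cage water libraries were above 1000 CPM. Fits below without these 3 libraries keep mouse 6 as the only home cage water mouse. The part of the smaller number of mice in the calls lost there was not tested. Summed neuron markers, at 14750 to 15840 CPM in learning and 13200 to 15760 CPM in home cage libraries, were high in each library, as in brain tissue. The neuron marker sums were not among the 5 measures tested. The remaining measure, the share of counts from lincRNA and antisense genes, averaged 1.023% in home cage and 1.001% in learning libraries (exact permutation test, adjusted p = 0.584). Total counts, mitochondrial share, length slope and choroid plexus level moved together with condition. Their part in the results below was not tested except where a value is given.

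Of 35328 genes counted, 17830 were tested, with the drink as a covariate and a threshold of 0.1 on the Benjamini-Hochberg adjusted p of the edgeR quasi-likelihood test. In learning mice 1478 genes were higher (8.29% of those tested) and 1286 were lower (7.21%). Most changes were small. The median log2 fold change was 0.20 among genes called higher (1.15-fold) and -0.28 among genes called lower (0.822-fold), beside a median of -0.01 over all tested genes, and the median standard error was 0.073. A log2 fold change of at least 1 in size was reached by 23 genes called higher and 45 called lower. All 8 learning libraries lay above all 8 home cage libraries for 170 genes (0.953%) and below them for 65 genes (0.365%). Levels are given below as CPM, the usual unit of a gene's count relative to the scaled total of its library, with the lowest, median and highest of the 8 mice of each condition.

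**Figure D1:**
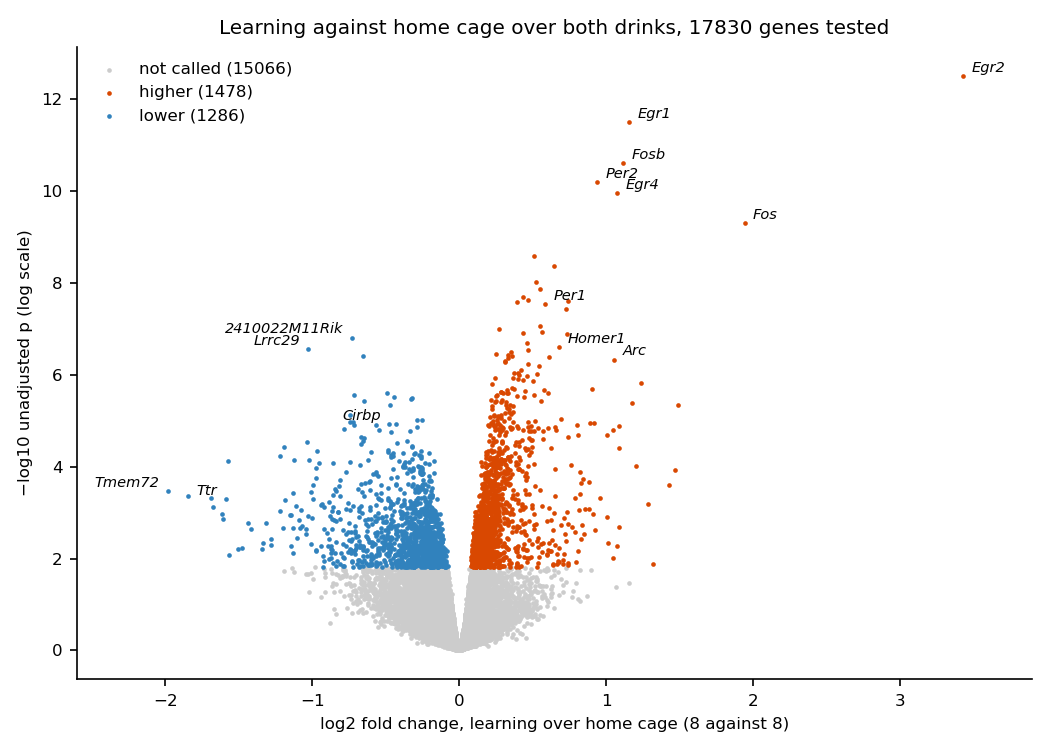
Each point is 1 of 17830 tested genes, with the log2 fold change of learning over home cage mice on the x axis and −log10 of the unadjusted p, on a log scale, on the y axis (8 against 8 mice, drink as covariate). Genes called higher (1478) and lower (1286) are coloured. Egr2 lies farthest to the right at 3.43 and the choroid plexus gene Tmem72 farthest to the left at -1.98.

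The Egr family showed the strongest response. Egr2, a zinc-finger transcription factor that lies at chr10:67535475-67542188 on the plus strand, was low at rest, with 0.119, 0.594 and 0.819 CPM in home cage mice, and reached 4.30, 6.57 and 9.29 CPM in learning mice. The groups did not overlap, and the log2 fold change was 3.43 (SE 0.189, adjusted p = 5.43e-09), the largest of any tested gene. Egr1, also known as Zif268 and a classical marker of hippocampal plasticity, stood at 71.3, 80.8 and 103.6 CPM in home cage and at 137.7, 193.9 and 214.3 CPM in learning mice (log2 fold change 1.16, SE 0.073, adjusted p = 2.82e-08). Egr4 (chr6:85511121-85513589) went from 14.5, 16.4 and 19.6 CPM to 24.6, 36.3 and 40.3 CPM (log2 fold change 1.08, SE 0.083, adjusted p = 3.91e-07). Egr3 rose less, by 0.37 on the log2 scale (adjusted p = 0.00164). In each of these genes every learning mouse was above every home cage mouse. Of the 6 genes of the Egr and Nab list, 5 were called higher and none lower, with a median of 0.72. Among the Nab corepressors, which bind Egr proteins and restrain them, Nab2 was called at 0.25 whereas Nab1 was not (0.02, adjusted p = 0.867). The Nab genes, like the other list members named below as outside the rule for named genes, were named after their values were seen.

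Among the AP-1 genes, whose Fos and Jun proteins bind DNA as dimers, 7 of 11 tested members were called higher and none lower, with a median of 0.60. Fos (chr12:85473890-85477273) stood at 1.59, 3.41 and 6.43 CPM in home cage mice and at 11.6, 13.0 and 18.2 CPM in learning mice (log2 fold change 1.94, SE 0.165, adjusted p = 1.46e-06). Fosb (chr7:19302696-19310051) went from 4.56, 5.43 and 6.59 CPM to 8.40, 11.9 and 14.03 CPM (log2 fold change 1.11, SE 0.079, adjusted p = 1.43e-07). Junb had 27.7, 32.3 and 40.1 CPM at rest and 44.1, 57.3 and 65.3 CPM after training (log2 fold change 0.74, adjusted p = 3.33e-05). For these genes the groups did not overlap. Junb overlaps Prdx2 on the opposite strand, and since no source used here states whether counting used strand, its value and that of each gene with an overlapping neighbour is less certain. Fosl2 rose by 0.60 on the log2 scale (adjusted p = 7.07e-04), with a slight overlap between groups. Outside the rule for named genes, Atf3 (0.82, adjusted p = 0.00669) and Maff (0.77, adjusted p = 0.0336) were also called, whereas Jun (0.25, adjusted p = 0.123) and Jund (-0.13, adjusted p = 0.329) were not. The summed level of the AP-1 list was 327 to 373 CPM in home cage and 389 to 454 CPM in learning mice.

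**Figure D2:**
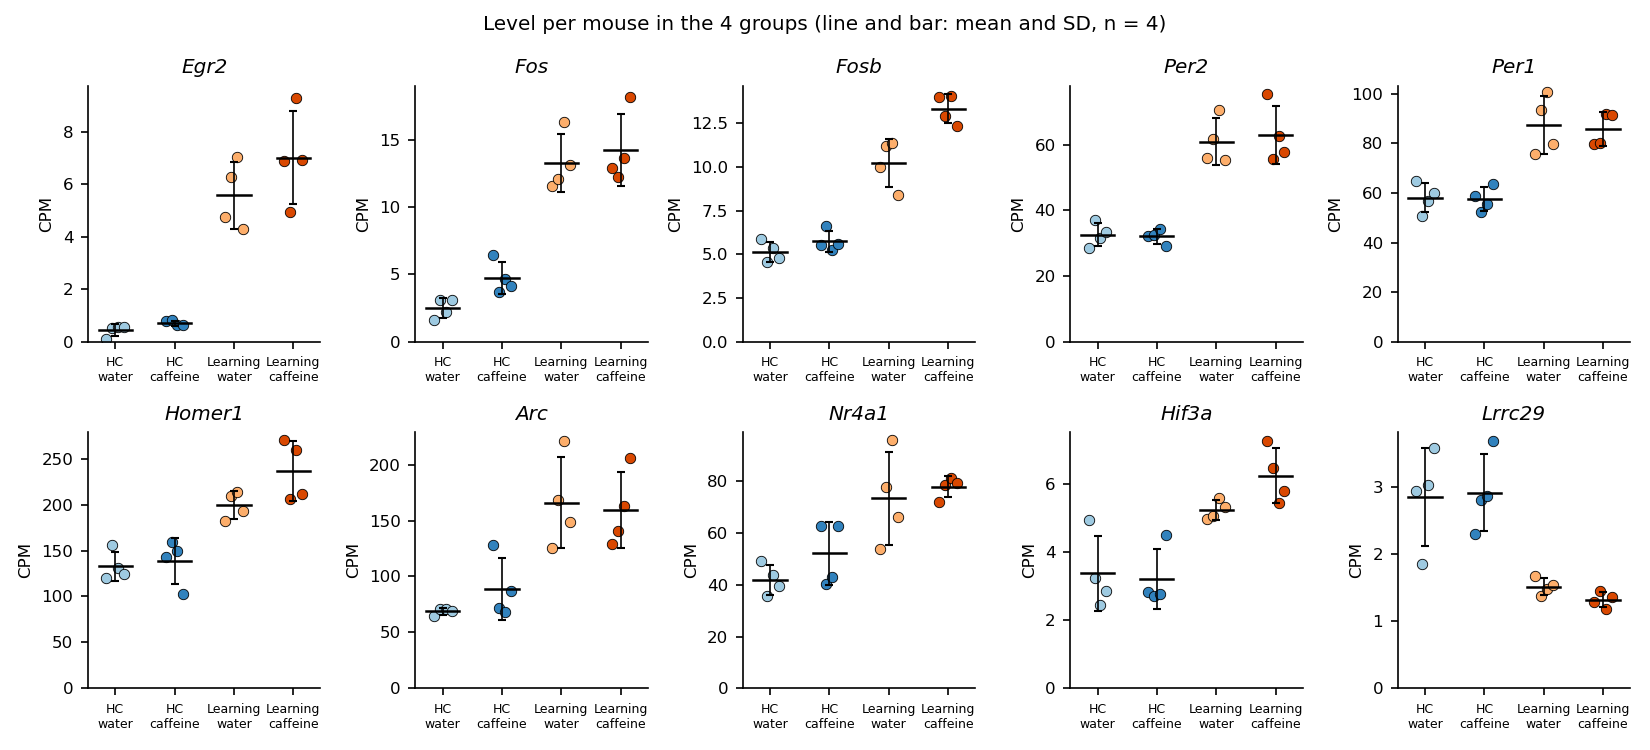
Level in CPM (y axis, linear, from 0) of 10 genes in each mouse of the 4 groups, with HC for home cage; the horizontal line and bar give the mean and SD of 4 mice. For Egr2, Fos, Fosb, Per2, Per1, Homer1 and Hif3a every learning mouse lies above every home cage mouse, for Lrrc29 every learning mouse lies below, and for Arc and Nr4a1 the conditions overlap.

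The 3 Nr4a genes, orphan nuclear receptors induced by cAMP signalling, were all called higher. Nr4a1 had 35.6, 43.3 and 62.7 CPM in home cage and 53.8, 78.3 and 95.8 CPM in learning mice, with overlap between the groups (log2 fold change 0.69, SE 0.114, adjusted p = 0.00154). Nr4a3 had 84.2, 116.9 and 138.9 CPM and then 139.3, 152.2 and 168.2 CPM, without overlap (log2 fold change 0.47, adjusted p = 0.00249). Nr4a2 rose by 0.50 (adjusted p = 0.00262). Of 24 other immediate early regulators of transcription, 10 were higher and 2 lower, with a median of 0.13. Npas4, a factor specific to neurons that responds to calcium entry, was among them, at 5.00, 7.11 and 11.3 CPM and then 7.46, 10.0 and 13.6 CPM. Its groups overlapped widely and its change was modest (log2 fold change 0.45, SE 0.131, adjusted p = 0.0408). With the choroid plexus level as a covariate Npas4 had an adjusted p of 0.300, and without the 3 home cage water libraries above 1000 CPM of choroid plexus markers an adjusted p of 0.170. The survival gene Mcl1 rose by 0.22 (adjusted p = 0.0011), and Id2, an inhibitor of helix-loop-helix factors, fell by 0.26 on the log2 scale (adjusted p = 0.00684).

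Effector genes of neuronal activity rose in part. Of 40 tested members 14 were called higher and 1 lower, with a median of 0.13. Arc, whose product removes AMPA receptors from the synapse, stood at 64.4, 70.8 and 128.2 CPM in home cage and at 125.5, 155.9 and 220.7 CPM in learning mice (log2 fold change 1.05, SE 0.140, adjusted p = 0.000244). A single home cage caffeine mouse, at 128.2 CPM, reached into the learning range. Homer1, a postsynaptic scaffold whose short form is induced by activity, went from 102.3, 136.9 and 159.4 CPM to 181.8, 210.4 and 270.2 CPM, without overlap (log2 fold change 0.68, SE 0.086, adjusted p = 0.000183). The gene-level count does not separate its forms. Sik1, a kinase induced by cAMP that acts back on CREB signalling, went from 4.83, 5.89 and 6.67 CPM to 7.94, 10.2 and 11.3 CPM (log2 fold change 0.73, adjusted p = 0.000109). Pcsk1, a convertase that cuts neuropeptide precursors and whose promoter is shown above, went from 19.2, 19.9 and 22.8 CPM to 24.6, 26.4 and 30.0 CPM (log2 fold change 0.40, adjusted p = 3.33e-05). The naming rule also picked 2 genes on none of the lists for a large rise without overlap. Tent5a, a noncanonical poly(A) polymerase, had 4.46, 5.20 and 6.91 CPM and then 8.14, 8.80 and 10.3 CPM (log2 fold change 0.73, adjusted p = 4.17e-05), and the kinase gene Map3k19 rose by 0.66 (adjusted p = 0.00185). Tiparp, a mono-ADP-ribosyltransferase, rose by 0.46 (adjusted p = 0.000159). Outside the rule for named genes, Bdnf, the neurotrophin, had a log2 fold change of 0.12 that did not pass the test (SE 0.077, adjusted p = 0.330).

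Feedback inhibitors of the MAPK pathway, which end growth factor signalling, were called higher in 8 of 17 and lower in 1 of 17 cases, with a median of 0.04. Errfi1, an inhibitor of the EGF receptor, had 33.7, 39.1 and 47.7 CPM in home cage and 51.1, 58.4 and 61.5 CPM in learning mice, without overlap (log2 fold change 0.55, adjusted p = 9.25e-05). The Sprouty gene Spry4 rose by 0.57 (adjusted p = 0.000109), the ERK phosphatase Dusp6 by 0.54 (adjusted p = 3e-04) and Spred1 by 0.33 (adjusted p = 7.07e-04). Dusp1, another MAP kinase phosphatase, had 6.24, 8.04 and 10.9 CPM and then 8.40, 10.2 and 11.9 CPM. Its change of 0.33 (SE 0.107, adjusted p = 0.0617) was near the threshold, with an adjusted p of 0.490 under the choroid plexus covariate and 0.301 without the 3 home cage water libraries. Under that covariate 5 members of this list were called higher and none lower.

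Genes of the circadian clock responded unevenly. Per2, a repressor in the clock loop that is also induced by CREB and by glucocorticoids, lies at chr1:91415982-91459324 and had 28.5, 32.4 and 37.0 CPM in home cage and 55.4, 59.7 and 75.6 CPM in learning mice. The groups were far apart, with a log2 fold change of 0.94 (SE 0.070, adjusted p = 2.82e-07). Per1 went from 50.6, 57.7 and 64.7 CPM to 75.6, 85.7 and 100.6 CPM (log2 fold change 0.58, SE 0.064, adjusted p = 3.4e-05). Per3 rose by 0.47 (adjusted p = 0.00429), again without overlap. Arntl, which encodes the activator Bmal1, fell by 0.35 on the log2 scale (adjusted p = 0.00274). Of 21 clock genes 9 were higher and 2 lower, with a median of 0.09, and 5 and 2 under the choroid plexus covariate. Clock (0.09, adjusted p = 0.249), the output gene Dbp (0.00, adjusted p = 0.995) and the repressor Nr1d1 (-0.05, adjusted p = 0.781), which lie outside the rule for named genes, did not pass the test. Tissue of every mouse was collected in a window of 2 hours, per the study's methods. The order of the mice within that window is not given in the sources used here, so the part of time of day in these values was not tested.

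Of 28 glucocorticoid-responsive genes 17 were higher and 1 was lower, with a median of 0.26. Hif3a, a hypoxia-inducible factor subunit that glucocorticoids induce in brain, had 2.45, 2.86 and 4.96 CPM in home cage and 4.97, 5.53 and 7.28 CPM in learning mice (log2 fold change 0.80, SE 0.136, adjusted p = 0.00174). Its groups touched without overlapping. Fkbp5, a chaperone that dampens the glucocorticoid receptor, had 58.7, 63.6 and 77.1 CPM and then 73.4, 81.9 and 90.2 CPM, with a slight overlap (log2 fold change 0.34, SE 0.056, adjusted p = 0.0015). Tsc22d3, known as Gilz, rose by 0.60 (adjusted p = 0.00181) and the zinc-finger factor Zbtb16 by 0.55 (adjusted p = 8.58e-04). Outside the rule for named genes, the kinase gene Sgk1 rose by 0.63 (adjusted p = 0.00342) and the lipid droplet gene Plin4 by 1.09 (adjusted p = 0.033). The metallothionein genes Mt1 and Mt2 did not pass the test, at -0.16 (adjusted p = 0.443) and -0.10 (adjusted p = 0.711). With the choroid plexus covariate 11 members were higher and 1 lower, and without the 3 home cage water libraries 11 and 2.

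**Figure D3:**
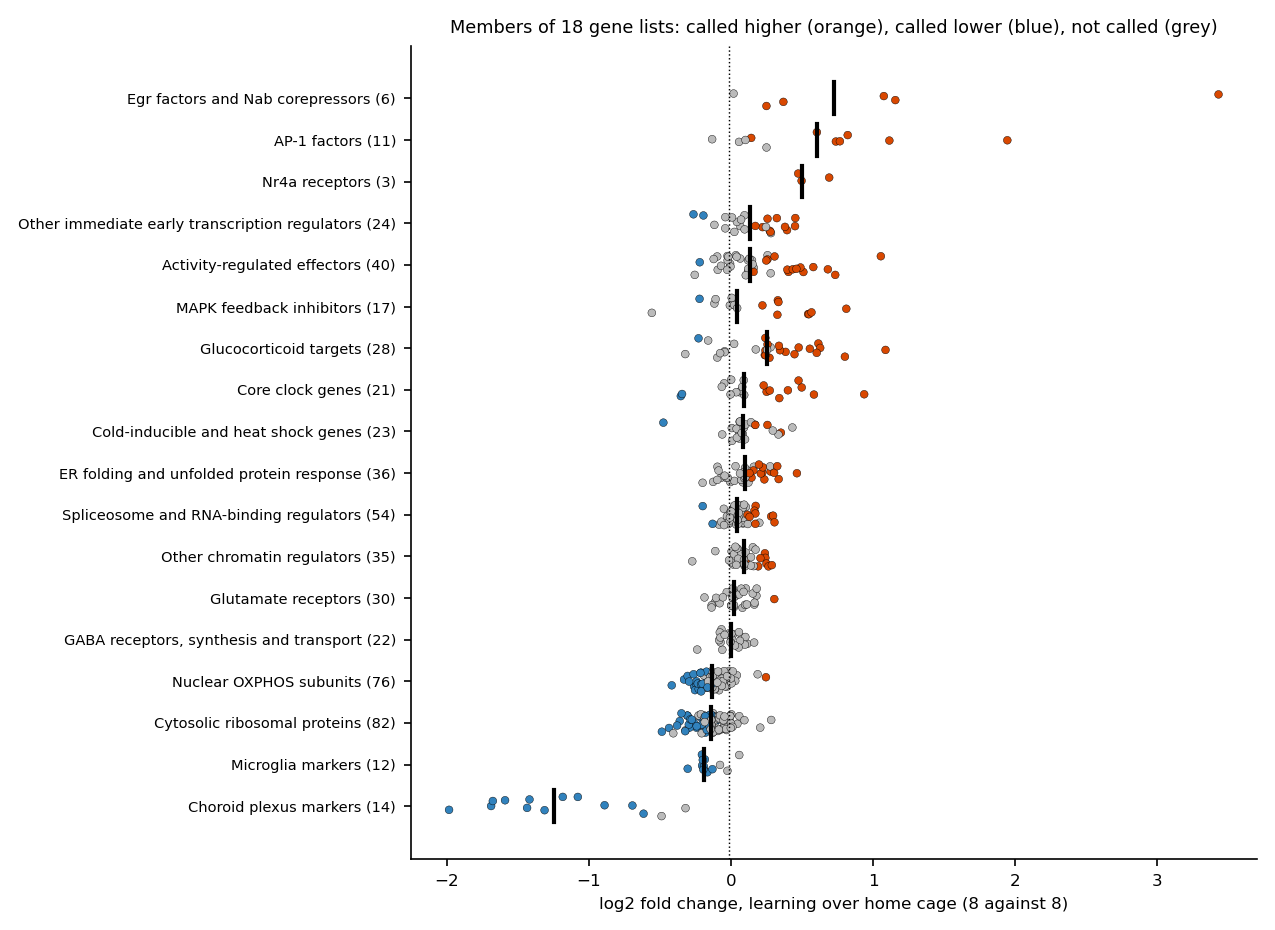
Log2 fold change of learning over home cage mice (x axis) for the tested members of 18 gene lists, with the number of members beside each name, the list median as a black bar and the median of all tested genes as a dotted line. Orange points were called higher, blue lower and grey not called. The Egr, AP-1 and Nr4a medians lie at 0.72, 0.60 and 0.50, and the choroid plexus median at -1.25.

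Genes that respond to temperature, protein folding and oxygen were followed because the mice swam at 21 °C. Among 23 cold-inducible and heat shock genes, 3 were higher and 1 was lower, with a median of 0.08. These are 13.0% and 4.35%, beside 8.29% and 7.21% of all tested genes. After the correction for transcript length and GC content, 7 were higher and 1 was lower, with a median of 0.10. Cirbp, an RNA-binding protein induced by cold, had 70.1, 87.0 and 110.0 CPM in home cage and 54.9, 65.4 and 68.0 CPM in learning mice, all below the home cage range (log2 fold change -0.48, SE 0.081, adjusted p = 0.00173). Rbm3, the other well-known cold-inducible gene, moved in the opposite direction, by 0.17 (adjusted p = 0.0632), and had an adjusted p of 0.135 after the length and GC correction described below. Among the heat shock genes, the co-chaperone gene Dnajb1 rose by 0.35 (adjusted p = 0.00131) and Chordc1 by 0.26 (adjusted p = 0.0102). Outside the rule for named genes, Hspa1a had a value of 0.33 that did not pass (adjusted p = 0.111).

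Of 36 genes of endoplasmic reticulum folding and the unfolded protein response, 13 were higher and none lower, with a median of 0.10. Hspa5, the main chaperone of that compartment, had 173.9, 209.2 and 283.0 CPM in home cage and 256.6, 296.4 and 361.9 CPM in learning mice (log2 fold change 0.46, SE 0.099, adjusted p = 0.00786). The transcription factor gene Xbp1 rose by 0.33 (adjusted p = 0.00589) and Herpud1, of the degradation machinery, by 0.23 (adjusted p = 0.00275). Leaving out 1 library at a time gave 7 to 15 called members. Among 18 hypoxia and VEGF genes 4 were higher and none lower, with a median of 0.01. Vegfa, the angiogenic growth factor, was called at 0.31 (adjusted p = 0.00823) and Pfkfb3, which drives glycolysis, at 0.32 (adjusted p = 0.0222).

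Some chromatin regulators were higher by small amounts. Of 35 methylation and remodelling genes, 8 were higher and none lower, with a median of 0.09, and after the length and GC correction 8 were higher and 1 lower, with a median of 0.03. The H3K9 demethylase gene Kdm3a had 41.0, 44.6 and 46.8 CPM in home cage and 49.6, 52.4 and 55.2 CPM in learning mice, without overlap (log2 fold change 0.24, SE 0.034, adjusted p = 4.62e-04). The H3K4 methyltransferase gene Kmt2a (0.29, adjusted p = 0.00478), the H3K27 demethylase gene Kdm6b (0.26, adjusted p = 0.00572) and the H3K4 demethylase gene Kdm5c (0.25, adjusted p = 0.006) rose as well. Among 30 enzymes and readers of histone acetylation, 3 were higher, near the share over all genes, and none lower, with a median of 0.01. Ep300, an acetyltransferase that writes H3K27ac, rose by 0.28 (adjusted p = 0.00499), without overlap. The deacetylase gene Hdac4 was called at 0.19 (adjusted p = 0.041) but had an adjusted p of 0.193 after the length and GC correction. Crebbp, the close relative of Ep300 and outside the rule for named genes, had a value of 0.10 that did not pass (adjusted p = 0.212). Among 54 splicing and RNA-binding regulators 9 were higher and 2 lower, with a median of 0.04, including the splicing kinase gene Clk1 (0.28, adjusted p = 0.0048) and Tra2a (0.31, adjusted p = 0.00485). After the length and GC correction these counts were 5 and 4.

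Ribosome and respiratory chain genes were lower by small amounts, and less so after the length and GC correction described below. Of 82 cytosolic ribosomal protein genes none was higher and 30 were lower, with a median of -0.14. Rps20, of the small subunit, had 29.2, 30.7 and 32.9 CPM in home cage and 26.3, 27.5 and 29.3 CPM in learning mice, with a narrow overlap (log2 fold change -0.17, SE 0.036, adjusted p = 0.00686), and Rpl35a, of the large subunit, fell by 0.31 on the log2 scale (adjusted p = 0.0307). Of 76 nuclear genes for subunits of oxidative phosphorylation 1 was higher and 27 were lower, with a median of -0.13. Sdhc, a subunit of complex II, fell by 0.20 on the log2 scale (adjusted p = 0.00873), whereas Atp5g1, a subunit of the ATP synthase ring, rose by 0.25 (adjusted p = 0.0152). Of the 13 mitochondrially encoded subunits 7 were tested and 4 were lower, with a median of -0.13. Among them mt-Nd1, of complex I, had 6366, 6896 and 8224 CPM in home cage and 5931, 6194 and 6378 CPM in learning mice. The remaining mitochondrially encoded subunits (mt-Nd3, mt-Nd4l, mt-Co2, mt-Co3, mt-Atp6 and mt-Atp8) were not among the tested genes. Such genes share many pseudogenes, and their counts are uncertain for that reason.

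The counts of these lists moved with a joint correction for transcript length and GC content and with single libraries. Among tested genes ordered by exonic length, in 5 bins of equal size, 1.99% of the shortest bin were called higher and 12.3% lower, against 17.4% and 3.01% of the longest bin. The median exonic length was 6253 bases for genes called higher, 2816 bases for genes called lower and 3980.5 bases over all tested genes. With a correction for length and GC content in each library, 1282 genes were higher and 995 lower, of which 1092 and 801 were among the uncorrected calls, and the median lengths of these sets were 4755 and 4594 bases. The ribosomal list then had 12 of 82 genes called lower and a median of -0.06. The nuclear oxidative phosphorylation list had 5 of 76, near the share over all genes (995 of 17830), and a median of -0.03. The mitochondrially encoded list had none of 7. Leaving out 1 library at a time gave 14 (without learning caffeine mouse 22) to 36 (without home cage water mouse 8) ribosomal genes called lower. The nuclear oxidative phosphorylation genes called lower ranged from 6 (without home cage caffeine mouse 17 or learning water mouse 38) to 46 (without home cage water mouse 8). Without the 3 home cage water libraries above 1000 CPM of choroid plexus markers 36 and 46 were called lower, with medians of -0.18 and -0.18, and 1 mitochondrially encoded gene. For the Egr, AP-1 and Nr4a lists the corrected fit called 5, 7 and 3 members higher, as many as without the correction.

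**Figure D4:**
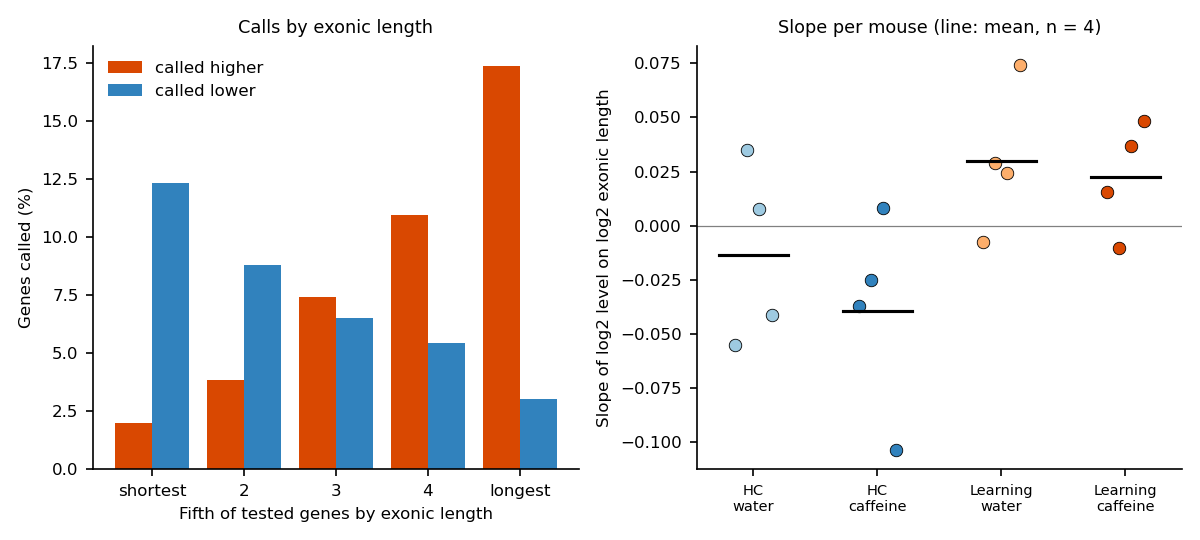
Left, percent of genes called higher (orange) and lower (blue) in each of 5 equal bins of the tested genes by exonic length, from 1.99% and 12.3% in the shortest to 17.4% and 3.01% in the longest. Right, the slope of log2 level on log2 exonic length in each mouse (line, mean of 4 mice), which averaged -0.0263 in home cage and 0.0263 in learning mice, with overlap between the conditions.

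Apart from choroid plexus genes, described further below, the genes named for large falls were those whose conditions did not overlap, and most were of low level and mixed function. Lrrc29, an F-box gene with leucine-rich repeats at chr8:105312265-105326278, had 1.85, 2.90 and 3.68 CPM in home cage and 1.18, 1.42 and 1.67 CPM in learning mice (log2 fold change -1.03, SE 0.131, adjusted p = 0.000197). The noncoding RNA gene 2410022M11Rik (chr14:56811989-56813899) had 3.08, 3.62 and 4.14 CPM and then 2.02, 2.12 and 2.59 CPM (log2 fold change -0.73, SE 0.089, adjusted p = 0.000125). In both genes every learning mouse was below every home cage mouse. The antisense RNA genes 9330171B17Rik and 0610040B10Rik both fell by 0.65 on the log2 scale (adjusted p = 8.48e-04 and 0.00242), and they overlap Kif7 and Zdhhc4 on the opposite strand. The collagen gene Col22a1 went from 4.80, 5.32 and 7.78 CPM to 2.96, 3.65 and 4.11 CPM (log2 fold change -0.65, adjusted p = 0.000223). Heyl, a transcriptional repressor downstream of Notch, fell by 0.68 on the log2 scale (adjusted p = 0.00552), and Ehhadh, a peroxisomal enzyme of fatty acid oxidation, by 0.49 (adjusted p = 7.07e-04). The immune cell genes Cd180 and Klhl6 fell by 0.74 and 0.71 on the log2 scale (adjusted p = 0.00138 and 0.00174). Clec2d, a lectin of immune cells (-0.73, adjusted p = 0.00164), Ccno, a cyclin-like factor of ciliated cells (-0.66, adjusted p = 0.00269), the orphan receptor gene Gprc5c (-0.57, adjusted p = 0.00174) and Rilp, a lysosomal transport factor (-0.72, adjusted p = 7.32e-04), were lower too, each without overlap. Long noncoding genes made up 13.5% of the genes called lower (174 genes) and 2.17% of those called higher (32 genes), beside 9.44% of all tested genes. After the length and GC correction they were 115 of the 995 genes called lower and 39 of the 1282 called higher.

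The called genes of highest level changed by small amounts. The microtubule protein gene Map1b had 724.2, 1045 and 1139 CPM in home cage and 1120, 1222 and 1319 CPM in learning mice (log2 fold change 0.26, adjusted p = 0.0283). The neuronal pentraxin gene Nptx1 (0.25, adjusted p = 0.0857), the kinesin gene Kif1a (0.09, adjusted p = 0.0917) and the endocytic kinase gene Aak1 (0.12, adjusted p = 0.0974) were called higher with overlap between the conditions. Nrgn, a calmodulin-binding protein of dendrites, was lower, with 1099, 1200 and 1343 CPM in home cage and 921.3, 1111 and 1174 CPM in learning mice (log2 fold change -0.15, adjusted p = 0.0666). After the length and GC correction Map1b kept its call (adjusted p = 0.029), whereas Nptx1 (0.105), Kif1a (0.256), Aak1 (0.691) and Nrgn (0.560) had adjusted p above the threshold.

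Markers of cell types were read to describe the dissection. In bulk tissue fewer cells of a type and less RNA per cell cannot be told apart. Of 14 choroid plexus markers, which belong to the epithelium that secretes cerebrospinal fluid, 12 were lower, with a median of -1.25 (-1.64 in water and -0.65 in caffeine mice). Ttr, its transthyretin gene, ranged from 144.4 to 2161 CPM in home cage mice (median 333) and from 74.1 to 363.4 CPM in learning mice (median 143.5), and the log2 fold change was -1.59 (SE 0.379, adjusted p = 0.0156). The range within home cage mice was wider than the difference between conditions. Without the 3 home cage water libraries above 1000 CPM none of the 14 was called and the median was -0.53. These libraries were picked by the summed level of the same markers and are all home cage, so a smaller fall was fixed by that choice. Of 12 microglia markers 9 were lower and none higher, with a median of -0.19. Siglech had 17.6, 19.3 and 20.4 CPM in home cage and 15.6, 16.8 and 17.95 CPM in learning mice (log2 fold change -0.21, SE 0.045, adjusted p = 0.00908), and Cx3cr1 fell by 0.19 on the log2 scale (adjusted p = 0.0119). The defining microglial genes P2ry12 (-0.08, adjusted p = 0.455) and Tmem119 (0.06, adjusted p = 0.520), outside the rule for named genes, did not pass, and 3 members were lower after the length and GC correction. Among 12 astrocyte markers 1 was lower, near the share over all genes. It was Gfap, the intermediate filament gene, at -0.25 (adjusted p = 0.0292).

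None of 12 neuron markers and none of 10 dentate granule cell markers passed the test, with medians of 0.04 and 0.22. The CA1 markers, 1 higher and 1 lower of 8, had a median of -0.19, and the CA3 and CA2 markers, 1 higher and none lower of 11, a median of 0.16. Wfs1, the CA1 marker called lower, had 107.8, 154.0 and 176.2 CPM in home cage and 101.4, 115.3 and 152.4 CPM in learning mice (log2 fold change -0.32, adjusted p = 0.0605). Gpr161, the CA1 marker called higher, had 59.6, 74.7 and 111.7 CPM and then 66.3, 105.6 and 139.3 CPM (log2 fold change 0.39). Amigo2, a CA2 and CA3 marker, rose by 0.43 (adjusted p = 0.0209). Genes of synaptic transmission changed little. Of 30 glutamate receptor genes 1 was higher, the gene of the auxiliary kainate receptor subunit Neto1 (0.30, adjusted p = 0.0261), and of 22 genes of GABA receptors, synthesis and transport none was called in either direction, with a median of 0.00. Among 51 potassium channel genes 5 were higher and 3 lower, near the share over all genes, and Kcna4, a channel of the A-type current, fell by 0.37 on the log2 scale (adjusted p = 0.0408). Among 26 postsynaptic scaffold genes 1 was higher, Dlg2 (0.13, adjusted p = 0.0714), and it had an adjusted p of 0.354 after the length and GC correction.

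The same response was then read in water mice and in caffeine mice apart, 4 learning against 4 home cage mice in each. By the same edgeR test 87 genes were called in water mice (0.488% of those tested, 67 higher and 20 lower) and 608 in caffeine mice (3.41%, 364 higher and 244 lower), 52 of them in both with the same direction. With 1 library left out, water mice gave 20 (without home cage mouse 11 or learning mouse 33) to 140 (without home cage mouse 8) genes called higher and 0 to 62 called lower. Caffeine mice gave 105 (without learning mouse 30) to 530 (without home cage mouse 14) called higher and 36 to 452 called lower, without the same 2 mice. DESeq2 called 317 higher and 158 lower in water and 787 and 563 in caffeine mice. The difference between the drinks in these counts was not tested as such. The difference between the responses, tested for each gene in edgeR, was called for none of 17830 genes (0%). An unadjusted p under 0.05 was reached by 648 genes, a smaller share than the 0.05 that such a threshold passes where no gene differs. All 1478 genes called higher over both drinks had a positive log2 fold change in each drink, and 1284 of the 1286 called lower had a negative one, which the pooled call in part requires. Of the 2764 called genes, 2197 were called in neither drink alone.

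A reading free of that selection takes the genes called in one drink to the mice of the other. Of the 67 genes called higher in water mice, 65 (97.0%) were also higher in caffeine mice, with medians of 0.46 and 0.43, where 47.7% of all tested genes were higher. Of the 364 called higher in caffeine mice, 360 (98.9%) were higher in water mice, with medians of 0.37 and 0.25, where 48.8% of all genes were higher. Of the 20 called lower in water mice, 19 (95%) were lower in caffeine mice. The 244 genes called lower in caffeine mice carried over less fully, with 197 (80.7%) lower in water mice and a median of -0.15 after -0.50, where 51.3% of all genes were lower. Scored per mouse as the mean log2 deviation over such genes, the higher genes gave -0.366 to -0.0934 in home cage and 0.127 to 0.345 in learning mice, without overlap. The water mice and the caffeine mice were scored over different genes, so the lower genes are read within each drink. Learning water mouse 24, at 0.115, fell among the home cage water mice, at 0.0394 to 0.195. Home cage caffeine mouse 2, at -0.0993, was the lowest home cage caffeine mouse. It still lay above the learning caffeine mice, at -0.292 to -0.233. Among single genes, Fos had a log2 fold change of 2.39 in water and 1.57 in caffeine mice (edgeR test of the difference, unadjusted p = 0.00863). Gfap had log2 fold changes of -0.08 and -0.43 in the same order (unadjusted p = 0.00616), and neither gene passed the adjusted test.

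**Figure D5:**
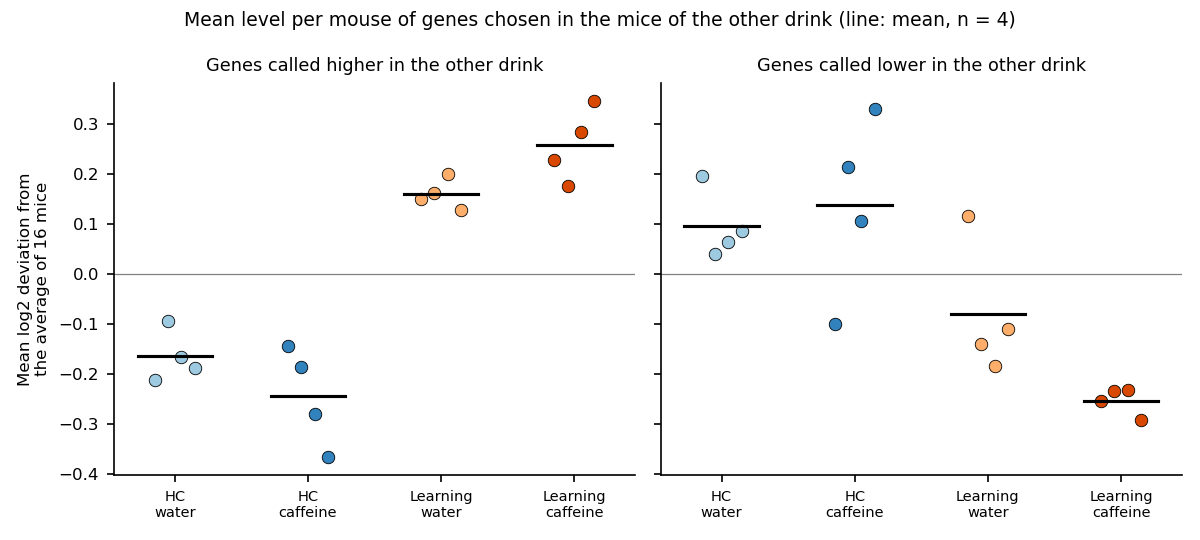
Mean log2 deviation from the average of 16 mice (y axis) in each mouse of the 4 groups (line, mean of 4 mice), over genes called higher (left) or lower (right) in the mice of the other drink. On the left the home cage mice lie between -0.366 and -0.0934 and the learning mice between 0.127 and 0.345. On the right learning water mouse 24 falls among the home cage water mice, and the conditions do not overlap within the caffeine mice.

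Within the 8 learning mice the level of Arc was compared with that of 7 other induced genes (log2 CPM, permutation tests, p adjusted over the 7). It ran with Per1 (Pearson r = 0.907, permutation p adjusted 0.0113; Spearman rho = 0.857, 0.0489). The values were r = 0.881 and rho = 0.786 for Dusp1 (adjusted permutation p = 0.0162 and 0.0489), r = 0.853 and rho = 0.714 for Fos (0.0164 and 0.0806), r = 0.844 and rho = 0.786 for Fkbp5 (0.0164 and 0.0489) and r = 0.770 and rho = 0.786 for Nr4a1 (0.0292 and 0.0489). Egr2 (r = 0.477 and rho = 0.595, adjusted permutation p = 0.234 and 0.154) and Npas4 (r = 0.570 and rho = 0.548, 0.169 and 0.171) did not pass. Learning water mouse 36 and learning caffeine mouse 40 lay farthest from the median of Arc. Without them r was 0.916 for Per1 (adjusted permutation p = 0.0681), 0.674 for Nr4a1, 0.662 for Dusp1, 0.532 for Fkbp5, 0.419 for Fos, 0.431 for Egr2 and -0.310 for Npas4, and with 6 mice left none passed 0.05 after adjustment. For Per1 r stayed as large without these mice, whereas the other relations that had passed had a smaller r and rested in part on them. Within drinks, where 4 mice each are too few for a separate value, r after centring on each drink was 0.907 for Per1 and 0.898 for Fos.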

How the data were processed

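RNA-seq was made from dorsal hippocampus of 16 mice, with a stranded poly(A) kit and single-end reads of 50 bases. The deposited values are raw counts per gene that the authors obtained with bcl2fastq 2.17.1.14, STAR (mm10) and HTSeq 0.6.1p1, per the submitters' processing notes, with Ensembl release 90 genes in union mode per the study's methods; strand use in counting is not given in the sources used here. Totals were 23080000 to 49950000 counts per library, and counts of low genes are less precise in the shallower home cage libraries. Mice are called by the numbers in their labels, 4 to a group, and no 2 libraries of a group agreed within sampling noise.

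Counts were tested in edgeR 4.0.16 (R 4.3.3), with TMM scaling, filterByExpr over the 4 groups, a quasi-likelihood fit with drink and condition, Benjamini-Hochberg adjustment and a threshold of 0.1. CPM are relative to scaled totals, and the standard error is the log2 fold change over the root of F. The response per drink came from a fit of that drink's 8 libraries alone, and the difference of the responses from the interaction in a fit of the means of the 4 groups. Library measures were compared by exact two-sided permutation within drinks (4900 assignments, smallest p possible 0.000408). The code was tested on simulated counts.

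Named genes were the 12 called genes in each direction with the largest changes (no overlap between conditions, average log2 CPM of at least 1), the 5 of smallest p and the 5 of highest level, up to 4 called members of smallest p in each list, and Fos, Arc, Egr2, Npas4, Nr4a1, Dusp1, Per1 and Fkbp5. Members and lists were chosen with earlier results of these data known, so that list counts are descriptions. They are to be read beside the median of all genes and the shares of all tested genes called higher (8.29%) and lower (7.21%). A few genes sit on more than 1 list. Promoters are from RefSeq, GRCm38.p6; 91 of 135 named genes matched. Alternatives were DESeq2 1.42.0 size factors and Wald test, limma 3.58.1 voom, other filters and thresholds, no drink term, group means, thinning to equal depth, a length and GC correction, a choroid plexus covariate, and leaving out libraries. The deposited tables hold no other columns of values, and no sample was left out. A few genes that the rule names are not reported here.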

Additional observations from a re-analysis of the deposited data

Results flagged for a closer look

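For 22 of 280 sets of 8 libraries of 1 condition, the highest or lowest library stood apart from the rest, with a gap to its neighbour, as a share of the whole range, over Dixon's 95% critical value. Chance flags about 1 in 20 such groups, here 14. Home cage caffeine mouse 17 accounted for 7 of the 22, home cage water mouse 20 for 6 and home cage water mouse 6 for 3.

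Home cage caffeine mouse 17 was the lowest home cage mouse for Map3k19 (1.95 CPM, gap 0.679 of the range), Map1b (724.2 CPM, 0.628), Neto1 (50.8 CPM, 0.674), Dlg2 (285.3 CPM, 0.540) and Ero1l (18.4 CPM, 0.527), and the highest for Gm42418 (41.1 CPM, 0.748) and for the mitochondrial share of counts (4.49%, 0.587). Home cage water mouse 20 was the highest for the summed choroid plexus markers (3225 CPM, 0.557), for Ttr (2161 CPM, 0.563), Aqp1 (22.4 CPM, 0.546) and Igfbp2 (40.8 CPM, 0.560), and also for Pcsk1 (22.8 CPM, 0.737) and Rilp (2.09 CPM, 0.638). Home cage water mouse 6 was the lowest for Egr2 (0.119 CPM, 0.604) and the highest for Tsc22d3 (61.9 CPM, 0.554) and Gpr161 (111.7 CPM, 0.592).

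The remaining flags were spread over single mice. Home cage caffeine mouse 2 was the highest for Arc (128.2 CPM, 0.645) and home cage caffeine mouse 14 for Kcna4 (57.2 CPM, 0.527). Among learning mice, water mouse 24 was the highest for Acaca (35.1 CPM, 0.628) and Neto1 (119.7 CPM, 0.592), water mouse 36 for Rilp (1.43 CPM, 0.560) and water mouse 38 for Dlg2 (404.2 CPM, 0.562).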

How the results depend on the processing

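No named gene changed direction under an alternative. Some list medians near 0 changed sign, and so did, with the choroid plexus covariate, the medians of the ependymal (-0.35 to 0.06), leptomeningeal (-0.14 to 0.09) and adult neurogenesis markers. The counts of 1478 genes called higher and 1286 called lower became 891 and 607 at an adjusted p under 0.05, and 1267 and 796 when every gene with any count was kept, 33354 in all. DESeq2 (Wald test) called 1828 and 1368, and limma-voom 1502 and 1258. Leaving out 1 library at a time gave 1097 to 2193 called higher and 769 to 1573 called lower, the lower count falling by more than 1.5 times without home cage caffeine mouse 17 (794), learning water mouse 38 (812) or learning caffeine mouse 22 (802), 30 (780) or 40 (769). Leaving out the 3 home cage water libraries above 1000 CPM of choroid plexus markers, an alternative chosen after seeing the data, gave 1474 and 1240, of which 1162 and 840 were among the original calls, and the choroid plexus covariate 1196 and 1048, of which 916 and 665 were. Of 135 named genes 85 were called under every alternative and every single library left out, 31 lost the call with the length and GC correction, 30 with the covariate and 23 without the 3 libraries. The counts in 1 drink moved widely, from 20 to 140 higher and 0 to 62 lower in water mice and from 105 to 530 and 36 to 452 in caffeine mice with 1 library left out, and to 317 and 158 and to 787 and 563 with DESeq2. The share of genes with the same direction in the other drink ranged, with 1 library left out, over 95 to 100% (called higher in water), 66.7 to 100% (lower in water), 96.7 to 100% (higher in caffeine) and 62.3 to 90.2% (lower in caffeine). The difference in total counts stayed past its threshold with each single library left out. The correlations of Arc without the 2 farthest mice (0.419, 0.674, 0.662, 0.916 and 0.532 for Fos, Nr4a1, Dusp1, Per1 and Fkbp5) no longer passed 0.05 after adjustment, with 6 mice left. No paired analysis was possible because the groups share no replicate numbers. Egr2 was not tested under the filter of at least 10 counts in every library. Depth limits the genes of low level most, since 1 CPM is 23.1 counts in the shallowest library.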

Other observations

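Other gene lists are given here, to be read beside the shares of all tested genes, 8.29% called higher and 7.21% called lower. Of 29 genes of cholesterol synthesis and uptake 4 were higher (13.8%) and none lower, with a median of 0.06. Of 21 genes of glycolysis and the lactate shuttle 2 were higher and 1 lower, with a median of 0.05. The neuronal glucose transporter gene Slc2a3 went from 115.7, 129.4 and 139.8 CPM in home cage to 148.4, 157.3 and 166.7 CPM in learning mice (lowest, median and highest of 8), without overlap (log2 fold change 0.28, SE 0.042, adjusted p = 7.07e-04). Of 50 translation factor genes 2 were higher and 5 lower (4% and 10%). Eif4ebp2, a brake on cap-dependent translation, rose by 0.26 (adjusted p = 0.00173), without overlap, and Eif3f fell by 0.16 on the log2 scale (adjusted p = 0.0303). Of 32 proteasome genes none was higher and 2 were lower, and of 27 voltage-gated calcium, sodium and HCN channel genes 1 was higher, Cacna1i (0.16, adjusted p = 0.0868).

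Among the remaining marker lists, 2 of 12 leptomeningeal fibroblast markers were lower (16.7%), with a median of -0.14. They include the growth factor gene Igf2 (-0.64, adjusted p = 0.0434), which had an adjusted p of 0.814 with the choroid plexus covariate. Endothelial markers had 1 higher and 1 lower of 12, near the share over all genes, and a median of -0.10. The glucose transporter gene Slc2a1 was at 0.24 (adjusted p = 0.0322) and the tight junction gene Cldn5 at -0.34 (adjusted p = 0.0562). Of 9 pericyte and smooth muscle markers 2 were lower (22.2%). Summed myelin markers ranged from 5370 to 9303 CPM in home cage and from 5145 to 12370 CPM in learning mice, and none of 12 was called. Of 11 oligodendrocyte precursor and new oligodendrocyte markers 1 was lower, and of 12 interneuron markers 1 was higher and 1 lower, near the share over all genes. Of 15 thalamus and habenula markers 1 was higher and 2 lower (6.67% and 13.3%), and of 10 adult neurogenesis markers 1 was higher. No tested ependymal, cortical or blood marker was called.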
